A study of Mus musculus with 7 samples.

Results

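The homeobox patterning genes of the mouse were taken by symbol: Hoxa, Hoxb, Hoxc or Hoxd with a number, Dlx, Msx, Prrx, Pitx, Irx, Meis, Pbx, Lhx, Nkx, Pax or Barx with a number, and the sine oculis-related homeobox genes, such as Six2. The rule gave 105 of the 21951 protein-coding genes in the GENCODE mouse release M21, of which 39 were Hox genes. A peak was counted at a gene when its deposited symbol was that of the gene or when it overlapped the gene body or the 5000 bp upstream of its start by at least 1 bp. By this rule 23 of the 8949 peaks in 4 lists lay at 20 of the 105 genes. The rule goes by name, and the paired-box genes Pax1 and Pax9 in it encode no homeodomain.

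The cells were ATDC5, a mouse line derived from a teratocarcinoma that behaves as chondroprogenitors and forms cartilage-like cells when its medium holds insulin, transferrin and selenite (ITS). The 7 samples of genomic DNA, all from this 1 line, were the input of untreated progenitors at day 0 (1 sample), day 0 progenitors enriched for 5-methylcytosine (5mC, 1 sample), day 10 differentiating cells enriched for 5mC (1 sample), and differentiating cells of day 5 and of day 10 enriched for 5-hydroxymethylcytosine (5hmC, 2 samples each, merged into 1 peak list per day). The days are those of the labels. The study's own text dates and names its stages differently, placing the day 10 5hmC list at an intermediate stage and the day 10 5mC list in chondrocytes, so the lists of both marks may not be of the same day, and any direction between days rests on the labels, which was not tested. With 1 list for each mark and day, no value below has a replicate spread and no difference was tested.

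Homeobox genes encode transcription factors that bind DNA through a homeodomain and tell cells where they lie in the embryo. Hox genes sit in clusters and act along the body axis and the limb, Meis and Pbx proteins bind DNA together with Hox proteins, and Dlx, Msx, Prrx, Nkx and Barx genes act in limb mesenchyme and in the cells that condense to cartilage. Promoters of such genes are rich in CpG, the dinucleotide at which mammalian DNA is methylated, and TET enzymes turn 5mC into 5hmC.

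The sequences of 5 peaks in the day 10 5hmC list show the DNA behind the 5hmC results: a site shared between days (Prrx2), a site in a repeated stretch (Meis1), a site with no CpG (Pax3), the site nearest to a gene start (Pax2) and the site in a Hox cluster (Hoxa2). Each is the whole peak, 5′ to 3′ on the plus strand of GRCm38 (RefSeq genome), with every CG in capitals.
Prrx2, chr2:30874564-30874738: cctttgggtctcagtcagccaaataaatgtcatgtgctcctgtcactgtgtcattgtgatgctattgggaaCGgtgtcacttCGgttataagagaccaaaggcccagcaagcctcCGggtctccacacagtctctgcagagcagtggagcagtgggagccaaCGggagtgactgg
Meis1, chr11:18953575-18953721: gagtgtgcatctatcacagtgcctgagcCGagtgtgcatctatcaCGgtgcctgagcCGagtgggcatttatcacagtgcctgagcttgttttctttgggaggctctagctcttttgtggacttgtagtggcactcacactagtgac
Pax3, chr1:78171402-78171534: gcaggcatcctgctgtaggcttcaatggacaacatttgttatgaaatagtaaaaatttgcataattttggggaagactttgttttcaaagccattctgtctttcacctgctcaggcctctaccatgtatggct
Hoxa2, chr6:52162077-52162189: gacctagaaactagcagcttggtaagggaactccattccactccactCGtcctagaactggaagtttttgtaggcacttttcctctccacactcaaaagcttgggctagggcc
Pax2, chr19:44755815-44755956: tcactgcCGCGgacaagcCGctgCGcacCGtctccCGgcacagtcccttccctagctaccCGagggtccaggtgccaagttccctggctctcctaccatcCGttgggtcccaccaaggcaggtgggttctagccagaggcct

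The day 10 5mC peaks were wider, and for 5 of them the 200 bp with the most CG is shown in the same way as an example of their sequence. These windows were picked for their CG, so their CpG content cannot be set beside that of the whole 5hmC peaks, and the CpG-poorer peaks at Prrx1 and Pax8 are not among them.
Hoxb9, chr11:96269584-96269783: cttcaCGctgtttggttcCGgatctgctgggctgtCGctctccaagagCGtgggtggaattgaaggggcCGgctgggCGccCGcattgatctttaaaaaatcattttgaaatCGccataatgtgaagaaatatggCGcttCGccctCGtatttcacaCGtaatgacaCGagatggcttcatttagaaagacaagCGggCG
Irx1, chr13:71961787-71961986: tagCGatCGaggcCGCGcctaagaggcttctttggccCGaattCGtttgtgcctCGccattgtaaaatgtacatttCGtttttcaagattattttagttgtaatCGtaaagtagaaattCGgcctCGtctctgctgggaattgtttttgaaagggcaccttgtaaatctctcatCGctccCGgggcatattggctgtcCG
Meis2, chr2:115860461-115860660: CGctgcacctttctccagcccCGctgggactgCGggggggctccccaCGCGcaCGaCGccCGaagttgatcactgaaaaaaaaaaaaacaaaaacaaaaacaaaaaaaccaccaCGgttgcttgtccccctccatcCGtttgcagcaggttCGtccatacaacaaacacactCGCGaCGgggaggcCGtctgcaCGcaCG
Pax5, chr4:44704453-44704652: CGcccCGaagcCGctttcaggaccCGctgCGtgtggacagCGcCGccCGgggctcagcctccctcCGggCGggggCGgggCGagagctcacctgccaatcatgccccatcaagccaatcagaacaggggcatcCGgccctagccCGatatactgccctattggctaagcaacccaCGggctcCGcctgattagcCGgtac
Dlx4, chr11:95149830-95150029: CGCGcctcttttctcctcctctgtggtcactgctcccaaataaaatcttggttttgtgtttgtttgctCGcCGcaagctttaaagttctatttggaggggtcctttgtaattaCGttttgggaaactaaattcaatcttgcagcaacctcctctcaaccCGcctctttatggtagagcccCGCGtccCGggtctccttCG

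Both day 5 5hmC peaks at these genes held 1 copy of TAATTA, the core that many homeodomains bind, which is in capitals here with 30 bp on either side.
Prrx2, chr2:30874279-30874344: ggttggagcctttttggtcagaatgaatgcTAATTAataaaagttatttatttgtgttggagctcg
Meis1, chr11:18948759-18948824: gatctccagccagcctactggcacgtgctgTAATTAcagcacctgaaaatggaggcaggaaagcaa

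Peaks were found at 5 of 39 Hox genes (among them Hoxa2, Hoxb9, Hoxd3 and Hoxd4), 5 of 9 Pax genes (Pax2, Pax3, Pax5, Pax6 and Pax8), 3 of 6 Dlx genes (Dlx3, Dlx4 and Dlx6), both Prrx genes, 2 of 3 Meis genes (Meis1 and Meis2), 1 of 6 Irx genes (Irx1), 1 of 6 sine oculis-related genes (Six2) and 1 of 4 Pbx genes. The 3 Msx, 3 Pitx, 8 Lhx, 14 Nkx and 2 Barx genes had no peak in any list. The share with a peak in any list was 19.0% of the 105 genes beside 15.9% of all protein-coding genes. No gene of the group had both 5mC at day 10 and 5hmC at either day, which allows a share of up to 2.86%, beside 2.2% of all protein-coding genes.

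**Figure D1:**
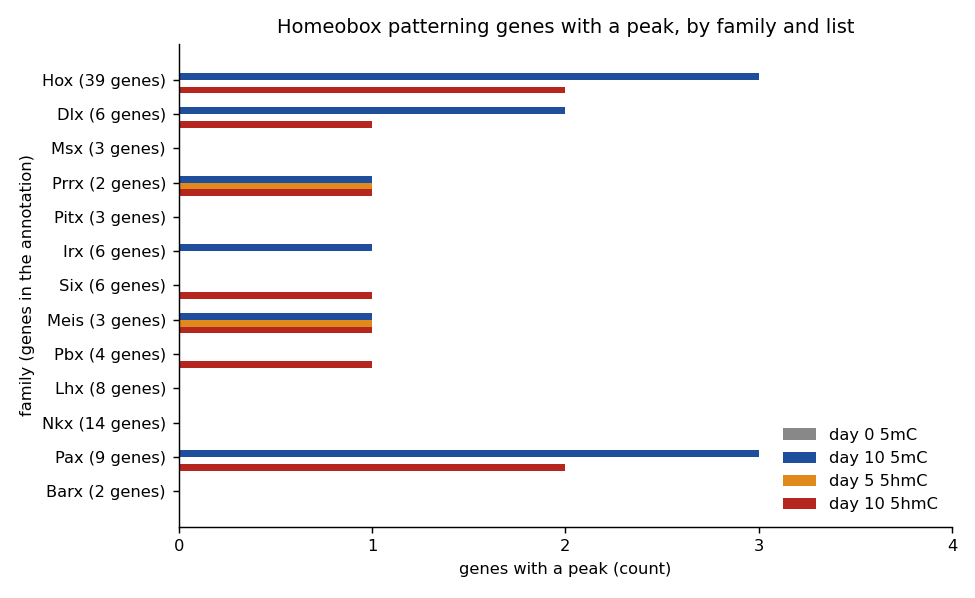
Number of genes with a peak (horizontal axis) in each family (vertical axis, with the number of genes in it), 1 bar per peak list. Hox and Pax genes each had 3 genes in the day 10 5mC list and 2 in the day 10 5hmC list, and no family had a bar for day 0 5mC.

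By list, none of the 326 day 0 5mC peaks lay at a homeobox patterning gene, beside 0.556% of all protein-coding genes with such a peak, and a count of 0 of 105 allows up to 2.86%. The day 10 5mC list had 12 of its 2401 peaks at 11 genes, 10.5% of the group (95% Wilson interval 5.95% to 17.8%) beside 6.71% of all genes. The day 5 5hmC list had 2 of its 2058 peaks at 2 genes, 1.9% (0.524% to 6.68%) beside 5.27%. The day 10 5hmC list had 9 of its 4164 peaks at 9 genes, 8.57% (4.57% to 15.5%) beside 8.32%. By position alone, without the deposited symbols, the genes numbered 0 (0.542% of all genes), 10 (6.55%), 2 (5.09%) and 6 (7.87%) in the same order of lists. Each background lay within the interval of the group's share. The intervals cover counting error over genes only, and genes of 1 cluster are not independent of each other.

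Gene length moved with these counts. The group's genes were short, with a median of 6.19 kb beside 17.4 kb for all protein-coding genes, and within the group the median was 32.5 kb for genes with a peak and 5.87 kb for those without. In the day 10 5mC list the group had 0 of 41 genes under 5 kb (2.02% of all genes of that length), 5 of 39 genes of 5 to 20 kb (3.27%), 4 of 20 genes of 20 to 100 kb (7.86%) and 2 of 5 genes over 100 kb (21.5%). Had the group's genes been hit at the rate of all genes of their length class, 4.76 of them would have had a day 10 5mC peak, where 11 did. In the day 5 5hmC list the group had 0 of 41 (1.47%), 0 of 39 (1.94%), 1 of 20 (6.33%) and 1 of 5 (18.6%) in the same order of length, and in the day 10 5hmC list 3 of 41 (2.46%), 1 of 39 (2.7%), 3 of 20 (9.43%) and 2 of 5 (31.9%). At the rate of all genes of their length the number was 3.55 for day 5 5hmC, where 2 did, and 5.54 for day 10 5hmC, where 9 did.

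**Figure D2:**
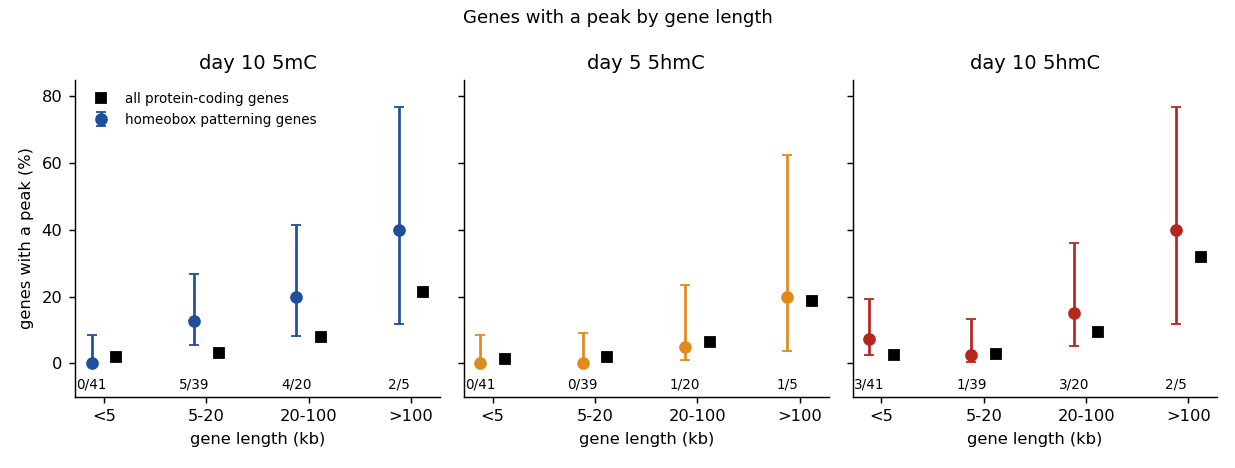
Percent of genes with a peak (vertical axis) by gene length in kb (horizontal axis) in 3 lists; circles with 95% Wilson intervals are the homeobox patterning genes, with their counts beneath, and squares are all protein-coding genes. In the day 10 5mC panel the circle for 5 to 20 kb (5 of 39) stands above its square at 3.27%, and in the day 5 5hmC panel both classes under 20 kb are at 0.

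Per length of sequence searched (2.87 Mb for the group, 1120 Mb for all genes), day 10 5mC gave 3.83 peaks per Mb beside 1.48, day 10 5hmC 2.44 beside 2.12, and day 5 5hmC 0.697 beside 1.1. The group's day 10 5mC value rests on 11 peaks counted as listed, several of them at Irx1, where neighbouring peaks lay as close as 9 bp. CpG content also differed: the median over gene body and upstream sequence was 2.73 CpG per 100 bp in the group and 1.17 in all genes, and 94 of the 105 genes fell in the upper tertile of genes by CpG content (at least 1.43 per 100 bp). Among those 94, 8 had a day 10 5mC peak, 8.51% beside 8.34% of all genes of that tertile, 6 had a day 10 5hmC peak (6.38% beside 7.27%), and 1 had a day 5 5hmC peak (1.06% beside 5.23%). Of the 9 genes in the middle tertile, 2 had a day 10 5mC peak (22.2% beside 8.82%), 1 a day 5 5hmC peak (11.1% beside 7.71%) and 3 a day 10 5hmC peak (33.3% beside 12.5%). Of the 2 genes in the lower tertile, 1 had a day 10 5mC peak (2.99% of all genes there) and none a day 5 (2.87%) or day 10 5hmC peak (5.19%). For day 10 5mC the group's share was thus near the background in the upper tertile and above it in the others, which hold few of its genes. The part of length or CpG content in the counts was not tested.

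In the Hox clusters, which hold 39 genes in 4 stretches of 96.8 to 174 kb, 3 peaks were found, and none was in a day 0 5mC or day 5 5hmC list. In the Hoxb cluster the only peak was day 10 5mC at chr11:96269016-96270069, 1388 bp upstream of Hoxb9, which acts in the trunk. It held 37 CpG (3.51 per 100 bp). In the Hoxd cluster the only peak was day 10 5mC at chr2:74723093-74723659, in an exon of Hoxd4 outside its coding sequence and inside the longer Hoxd3 gene, both genes of the anterior part of the axis. In the Hoxa cluster the only peak was day 10 5hmC at chr6:52162077-52162189, 228 bp past the end of Hoxa2, a hindbrain and neural crest gene. This peak was assigned to Hoxa2 by symbol alone and lay in exons of noncoding genes, among them the antisense gene Hotairm1. Its 113 bp, printed above, hold 1 CpG. The Hoxc cluster held no peak, and its nearest was a day 10 5hmC peak 56892 bp away.

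Within 100000 bp of the clusters, which includes these 3 peaks, there were 5 day 10 5mC and 4 day 10 5hmC peaks and none of the other lists. Over the gene bodies and upstream sequence of all protein-coding genes, day 0 5mC gave 0.103 peaks per Mb and day 10 5mC 1.48. Day 5 5hmC gave 1.1 and day 10 5hmC 2.12. No such rate was computed for the clusters or their flanks, so the counts do not show whether either is rich or poor in peaks. The 2 day 10 5mC peaks beside the Hoxa cluster lay 77993 and 92482 bp from it and held 1.86 and 1.89 CpG per 100 bp.

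Among the limb and cartilage genes, Dlx6, which with Dlx5 patterns jaw and distal limb, had a day 10 5mC peak at chr6:6864083-6865316. This peak covered a coding exon and came within 1000 bp of the gene start, as did a day 10 5mC peak at 0.478% of all genes. Its deposited symbol was that of an antisense transcript at Dlx6, and it was also the nearest peak to Dlx5, 12.5 kb away. Dlx4 had a day 10 5mC peak 3200 bp upstream of its start, at chr11:95149463-95150493, in an intron of the antisense gene Dlx4os. Its neighbour Dlx3, which acts in skin, hair, teeth and bone, had a day 10 5hmC peak 1347 bp past its end, at chr11:95126643-95126804, assigned by symbol alone. These peaks of different marks lay 22659 bp apart.

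Prrx1 and Prrx2 are paired-related genes of limb and craniofacial mesenchyme. Each had a peak deep in the first of 3 introns of its transcript with the longest coding sequence, but of different marks. At Prrx1 it was day 10 5mC at chr1:163282424-163283357, its midpoint 30820 bp from the start, with 1.82 CpG per 100 bp. At Prrx2 it was 5hmC at both days. The day 5 peak, chr2:30874210-30875642, was 1433 bp wide with 29 CpG, and the day 10 peak, chr2:30874564-30874738, was 175 bp wide with 4 CpG. The day 10 peak began 354 bp inside the day 5 peak and ended 904 bp before its end, covering 12.2% of it. Prrx2 was the only gene of the group where 5hmC peaks of both days overlapped. Such an overlap was found for 1 of the group's 2 day 5 peaks and 1 of its 9 day 10 peaks, beside 29.6% and 17.1% of the whole lists.

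Irx1, an Iroquois gene expressed in developing joints and digits, was the only gene of the group with 3 peaks, all day 10 5mC. They lay at chr13:71956896-71958020, which reached across the gene's end, chr13:71958030-71958833, in a coding exon, and chr13:71961568-71962418, in the first intron. They were 9 and 2734 bp apart, held 44, 37 and 30 CpG, and covered 30.2% of the 5803 bp of the gene body. With peaks counted as listed, such a count was rare: 0.337% of all protein-coding genes (74) had 3 or more day 10 5mC peaks. Irx1 was the only one of them under 20 kb, which was noticed after the values were seen. The count at Irx1 rests on keeping the peaks 9 bp apart separate. With peaks within 1000 bp merged, the group had 11 day 10 5mC peaks instead of 12, and Irx1 had fewer than 3. The 74 genes were not recounted after merging. Six2, which acts in kidney progenitors and the skull base, had a day 10 5hmC peak by symbol alone, chr17:85693464-85693578, 5190 bp upstream of its start and without a CpG.

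Of the genes in the group with known roles in limb and cartilage that were followed whether or not they had a peak, 6 besides Dlx5 had none at the gene. The nearest peak lay 15.1 kb from Msx2 (day 10 5mC), which acts in skull and limb, 119 kb from Msx1 (day 5 5hmC), 93.0 kb from Barx2 (day 10 5hmC), which acts in early cartilage, 316 kb from Pax1 (day 10 5mC) and 796 kb from Pax9 (day 10 5hmC), which act in the sclerotome that forms vertebrae, and 507 kb from Nkx3-2 (day 10 5hmC), an early chondrocyte repressor.

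The Meis genes, Hox cofactors, had peaks of both marks, in different genes. Meis1, which marks the proximal limb, had 5hmC at both days in the same intron, the seventh, but not at the same place: the day 5 peak chr11:18948614-18949765 (1152 bp) and the day 10 peak chr11:18953575-18953721 (147 bp) were 3810 bp apart. The day 10 peak began with 3 copies of a 29 bp unit, of which any pair had 25 to 28 of 29 bases equal, as the printed sequence shows. Within 500 bp of that peak there were 5 copies of the unit at 80% identity or more on the plus strand, these 3 included. Meis2, its paralogue, had a day 10 5mC peak by symbol alone, chr2:115859809-115861210, 1854 bp past the gene end with 59 CpG. Over all genes, 2.54% had 5hmC at both days, and in the group Meis1 and Prrx2 did.

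Among Pax genes, none of which had peaks of both marks, 3 had day 10 5mC and 2 had day 10 5hmC. Day 10 5mC lay in intron 10 of 11 of Pax8 (chr2:24425444-24426316), the thyroid and kidney gene, in intron 4 of 13 of Pax6 (chr2:105681658-105682662), the eye gene, and in intron 1 of 9 of Pax5 (chr4:44704453-44705366), the B-cell gene. The CpG content of these peaks ran from 1.03 per 100 bp at Pax8, the lowest of the group's day 10 5mC peaks, to 3.38 at Pax6 and 4.27 at Pax5. Day 10 5hmC lay in intron 4 of 8 of Pax3 (chr1:78171402-78171534), the gene of muscle precursors and neural crest. Pax2, the kidney and ear gene, had 2 day 10 5hmC peaks: one at chr19:44755815-44755956, 89 bp before the start and richest in CpG of the group's 5hmC peaks (5.63 per 100 bp), and one at chr19:44809297-44809417 in intron 6 of 10 (2.48). A day 10 5hmC peak within 1000 bp of the start was found at 0.579% of all genes, and Pax2 was the only gene of the group with one. No gene of the group had one in the day 5 5hmC list (0.483% of all genes) or the day 0 5mC list (0.0137%).

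**Figure D3:**
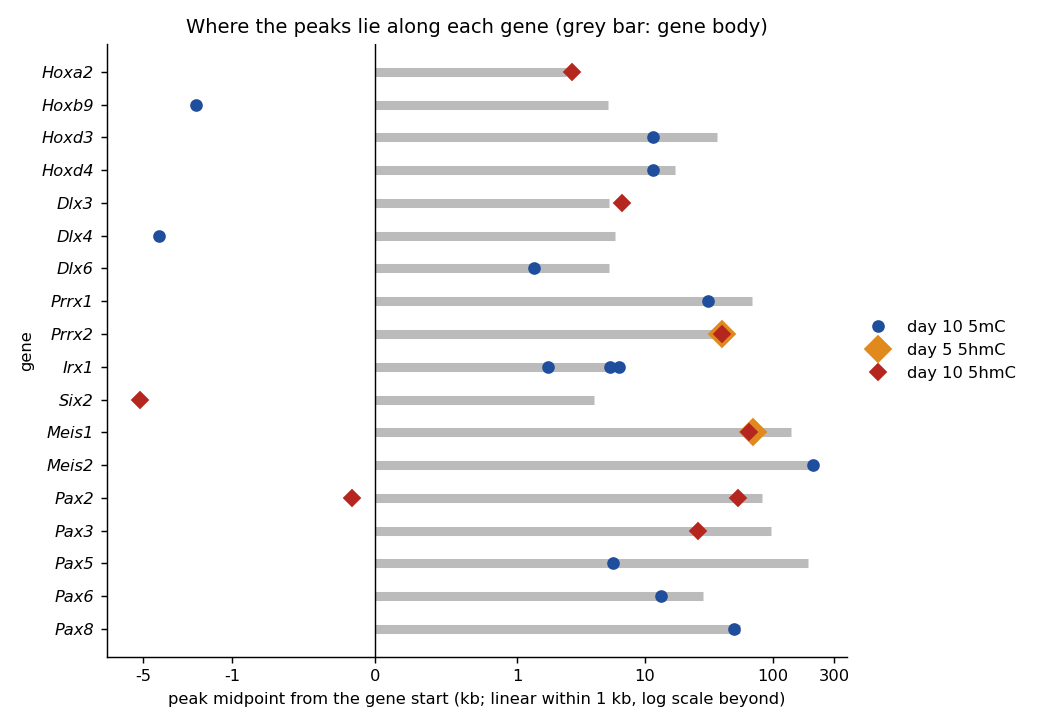
Midpoint of each peak relative to the gene start (horizontal axis, kb, linear within 1 kb and logarithmic beyond) for 18 of the 20 genes with a peak (vertical axis), with the gene body in grey; blue circles are day 10 5mC, large orange diamonds day 5 5hmC and red diamonds day 10 5hmC. The Hoxd3 and Hoxd4 points are 1 peak. At Prrx2 and Meis1 both 5hmC days lie close together far from the start, and the point nearest to a start is that of Pax2.

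Counting each peak once for every gene it lay at, 5 of 13 day 10 5mC pairs of peak and gene were in introns, beside 38.7% of the 1861 pairs over all genes, 2 in coding exons (44.7%), 2 in other exons (3.06%), 2 upstream (6.99%), 1 past the gene end (0.806%) and 1 in the gene body outside the main transcript (4.35%). For day 10 5hmC, 5 of 10 were in introns (71.0% over all genes), 2 upstream (10.2%), 2 past the gene end (2.31%) and 1 beyond the 5000 bp upstream (1.87%). Both day 5 5hmC peaks were intronic (59.3%). These shares were not tested. Places and intron numbers were read from the main transcript of each gene, the one with the longest coding sequence. Another transcript may have an exon at a peak called intronic.

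The day 10 5mC peaks at the group's genes held a median of 3.52 CpG per 100 bp, from 1.03 to 4.6, beside 2.42 for all day 10 5mC peaks and 2.75 for the 667 such peaks at other genes of the upper CpG tertile. All but 2 of the 12 peaks, those at Prrx1 and Pax8, were above the median of the list. An island-like composition (at least 50% GC and an observed over expected CpG of at least 0.6) was found in 4 of 12, 33.3% beside 4.71% of all day 10 5mC peaks and 7.95% of those at other genes of the upper CpG tertile. These were the Irx1 peaks at chr13:71956896-71958020 and chr13:71958030-71958833, only 9 bp apart, and those at Pax5 and Meis2, the last assigned by symbol alone. Of the 11 genes with a day 10 5mC peak, 8 were in the upper tertile, so that background does not match all of them. Their median width was 969.5 bp beside 1006 bp. The day 10 5hmC peaks were narrow, with a median of 142 bp beside 147 bp in the list, and held a median of 2.29 CpG per 100 bp beside 1.8. The 2 day 5 5hmC peaks, at 1.74 and 2.02, were near the 1.61 of their list.

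**Figure D4:**
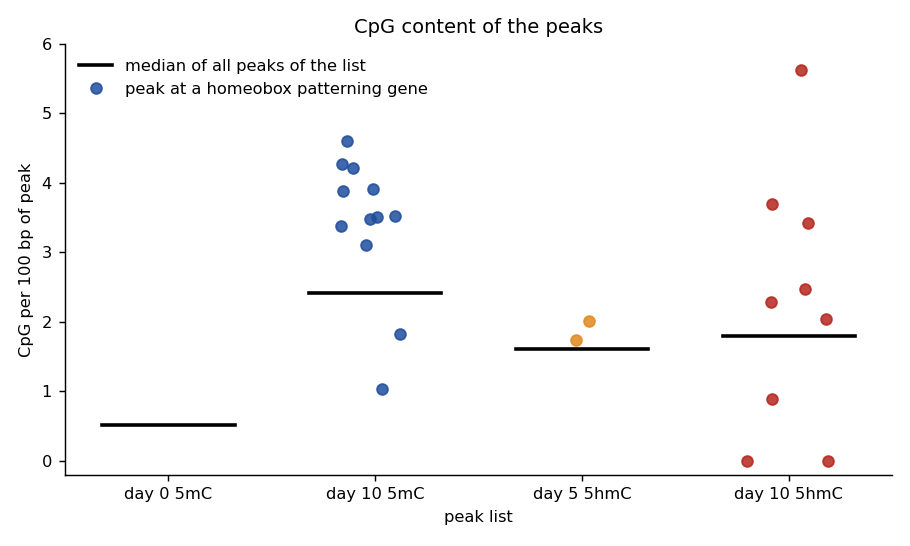
CpG per 100 bp of each peak at a homeobox patterning gene (points, vertical axis) in each list (horizontal axis), beside the median of all peaks of that list (bars). In the day 10 5mC list all of the 12 points but those of Prrx1 and Pax8 lie above the bar at 2.42, and 2 of the 9 day 10 5hmC points lie at 0.

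A CpG was missing from 2 of the 9 day 10 5hmC peaks, those at Pax3 and Six2, beside 6.56% of the list. At Pax3 the nearest CG was 3 bp from the peak edge, and the peak with 250 bp on either side held 8. At Six2 the nearest were 28 and 21 bp away, and 6 lay in the same span.

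The motif letters were searched on both strands. TAATTA was in both day 5 5hmC peaks, beside 15.1% of all day 5 peaks, in none of the 9 day 10 5hmC peaks, beside 2.38%, and in 2 of 12 day 10 5mC peaks, at Dlx4 and Irx1, beside 20.5%. TGATTGA, bound by PBX and HOX proteins together, was in 1 of 12 day 10 5mC peaks (9.2%), at Irx1, and in no 5hmC peak of the group (7.63% of the day 5 and 1.32% of the day 10 list). TGACAG, the core bound by MEIS proteins, was in both day 5 peaks (50.8% of the list), in 1 of 9 day 10 5hmC peaks (13.1%), at Prrx2, and in 3 of 12 day 10 5mC peaks (53.1%). The AP-1 letters TGAGTCA or TGACTCA were in neither day 5 peak (43.1% of the list), in none of the 9 day 10 5hmC peaks (7.97%) and in 1 of 12 day 10 5mC peaks (13.4%). AACCACA, a RUNX site, was in 4 of 12 day 10 5mC peaks, at Irx1, Pax8, Pax6 and Dlx6 (19.8% of the list), and in no 5hmC peak at these genes (25.6% of the day 5 and 7.56% of the day 10 list). TTGGCA, part of an NF1 site, was in 3 of 9 day 10 5hmC peaks (17.9%), 2 of them at Pax2, in 3 of 12 day 10 5mC peaks (41.3%) and in the day 5 peak at Prrx2 (48.1%). A wider peak holds more letters to match, and the group's 2 day 5 peaks, with a median of 1292.5 bp, were wider than the 819 bp of their list and than the day 10 5hmC peaks.

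Looking beyond the genes, the median gap from a gene body to the nearest peak was 131 kb for day 10 5mC, beside 391 kb over all protein-coding genes, and 120 kb for day 10 5hmC, beside 230 kb. For day 5 5hmC it was 442 kb beside 373 kb, and for day 0 5mC 2630 kb beside 3080 kb. A peak within 100 kb was found for 45 of the 105 genes in the day 10 5mC list (42.9% beside 23.4%) and for 48 in the day 10 5hmC list (45.7% beside 31.1%). It was found for 11 in the day 5 5hmC list (10.5% beside 22.4%) and for none in the day 0 5mC list, beside 3.22% of all protein-coding genes. The smallest day 0 5mC gap was 102 kb, at Hoxa13. Genes of 1 cluster share their neighbouring peaks, so these are not independent counts.

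**Figure D5:**
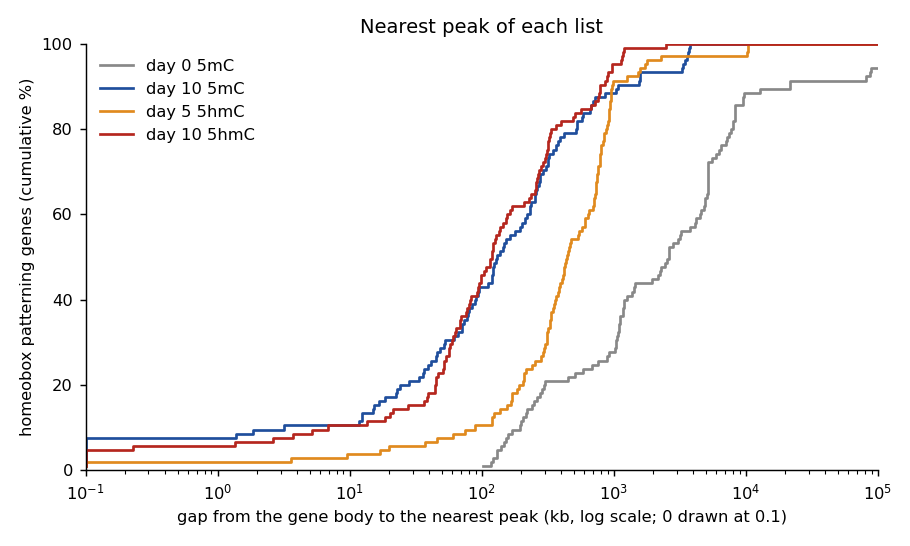
Cumulative percent of the 105 homeobox patterning genes (vertical axis) against the gap from the gene body to the nearest peak of each list (horizontal axis, kb, log scale, gaps of 0 drawn at 0.1). Lines of both day 10 lists run close together with medians of 131 and 120 kb, the day 5 5hmC line lies to their right at 442 kb, and the day 0 5mC line farthest right at 2630 kb.

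Of 38 other genes of limb and skeletal patterning, 11 had a peak in any list (15.9% of all protein-coding genes did). They were long genes: the median was 30.6 kb over the 38 and 194 kb over those with a peak. In the day 10 5mC list these were 8 (21.1% beside 6.71% of all genes): Cux2, Emx2, Tbx3, Tbx5, Tgif1, Tshz2, Tshz3 and Zfhx3. In the day 5 5hmC list they were Cux1 and Gli3, a mediator of Hedgehog signals (5.26% beside 5.27%). In the day 10 5hmC list they were 4 (10.5% beside 8.32%): Cux1, Pknox2, Tbx3 and Zfhx3. Zfhx3 held both marks. Tbx3, a limb T-box gene, had a day 10 5hmC peak in an intron and a day 10 5mC peak by symbol alone, 7188 bp from the gene. At Cux1 a day 10 5hmC peak of 238 bp lay inside a day 5 peak of 900 bp, the arrangement seen at Prrx2. The whole 5hmC lists differed in width in the same direction, with medians of 147 bp at day 10 and 819 bp at day 5.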

How the data were processed

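The deposited data were 4 peak lists, with the position of each peak and, for some, a gene symbol. The deposited values are positions in bp alone, without a measure of height or depth. The authors used cutadapt for trimming, BWA for alignment to GRCm38 and MACS 1.4.2 at default settings for peaks, describing the calls as gain or loss between progenitors and chondrocytes. Per the file headers, the authors kept regions of at least 3-fold (5mC) or 10-fold enrichment (5hmC, merged samples), and the control is not named. A peak list does not show that a mark is missing elsewhere, and a region could be a difference between samples. The 5mC capture used proteins that bind methylated CpG, and the 5hmC capture a tagged glucose. The input sample was not used here.

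Empty rows in the 5hmC lists (27818 and 25449) were dropped. Peaks were matched to GENCODE M21 genes, CpG and repeats (lower case in the genome file) were read from the GRCm38 RefSeq genome, widths count both end bases, and Wilson 95% intervals were computed in Python 3.11.15 with scipy 1.17.1. Counting steps were checked on simulated peaks. Genes with a peak were named, except 2 that are counted but not reported here, and 9 limb and cartilage genes were named with their nearest peak. The gene group and lists were chosen with earlier results of these data known. Alternatives covered the upstream length, the symbol, the overlap rule, merging, repeats, width and the Hox margin.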

Additional observations from a re-analysis of the deposited data

How the results depend on the processing

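No paired analysis was possible because the 5hmC samples numbered 1 and 3 were merged into 1 list per day, and for the same reason no sample could be left out. Of 87 values recomputed under another setting, 76 were within 1.5 times the reported value and 57 were equal to it. The equal ones include day 0 5mC counts of 0, which dropping peaks could not change. Those within 1.5 times include the genes with a day 10 5hmC peak by position alone, 6 instead of 9. Without peaks under the median width of their list, the genes with a day 10 5mC peak were 5 (5 peaks) instead of 11, and those with a day 10 5hmC peak 4 (4 peaks) instead of 9. This setting removes the narrower peaks of every list by construction, and the share of all genes was not recomputed under it. Peaks near the Hox clusters moved with the margin by construction: at 50000 bp there were 2 day 10 5mC and 2 day 10 5hmC, and at 500000 bp 13 day 10 5mC, 11 day 10 5hmC, 5 day 5 5hmC and 4 day 0 5mC. Asking for 50% of both peaks left 0 of the overlapping day 5 5hmC peaks, the Prrx2 site, whose peaks differ 8.19 times in width. Depth, which is unknown, limits every count of 0.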

Other observations

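Within 100 kb of a homeobox patterning gene there were 31 day 10 5mC (1.29% of the list), 10 day 5 5hmC (0.486%) and 31 day 10 5hmC peaks (0.744%). Of the 326 day 0 5mC peaks, 0 lay there. The share of each list near other genes was not computed, so these shares have no background and their differences between lists were not tested. Of the 10 day 5 peaks, 3 overlapped a day 10 5hmC peak (29.6% of the whole list did), and of the 31 day 10 5hmC peaks 3 overlapped a day 5 peak (9.68% beside 17.1%). Of these sites, 2 of the 3 were near Prrx2: the intronic site, and a site 37.8 kb from the gene at chr2:30795898-30797146. The third was 20.0 kb from Irx3, at chr8:91777482-91778513, and held the day 10 peak chr8:91777850-91778103. Near Pbx4, a Hox cofactor gene without a peak by the rule, a day 5 and a day 10 5hmC peak lay 3.58 and 2.61 kb past the gene end without overlapping.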
